A study of Danio rerio with 14 samples.

Results

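Msx genes encode homeodomain proteins that act mainly as transcriptional repressors. They lie downstream of Bmp signalling in many tissues, hold mesenchymal cells of growing limbs and fins in an undifferentiated state, and are switched on again when a fin or digit regrows. In mice, Msx1 is needed for regrowth of the fetal digit tip. The blastema is the mound of proliferating mesenchymal cells that forms under a wound epidermis on each amputated fin ray and rebuilds the ray.

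All 5 zebrafish msx genes of the chosen list, namely msx1a, msx1b, msx2a, msx2b and msx3, were among the 14836 genes of the deposited table, and all 5 passed the filter on low values that kept 11272 genes. The members were chosen by name, though with earlier results of these data known. The RefSeq gene table pairs the current symbols with the letter names of older work, msxe for msx1a, msxb for msx1b, msxa for msx2a, msxd for msx2b and msxc for msx3. In that older work on regenerating fins, msxb and msxc were described in the distal blastema, and msxa and msxd in the wound epidermis.

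Bulk RNA was sequenced from a strip of about 250 µm at the tip of fin rays of wild-type zebrafish (Danio rerio). The 14 libraries fall into 5 times in days post amputation (dpa). There were 2 libraries at 14 dpa and 3 at every earlier time, namely 0, 3, 7 and 10 dpa. Each library was a pool of 10 animals per the design text, which gives the 3 dpa group as 3.5 days, so p-values measure the spread between pools. No group carried a transgene or a drug treatment per the labels, and strain, age and the fin used are not given in the sources used here. Values are in TPM, a length-corrected share of all transcripts, so levels can be compared between genes.

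The labelled tissue held marker transcripts from the list of every cell type checked, and no marker in the table was at 0 in every library. Some were near 0, as cdh5 of endothelium, at a mean of 0.265 TPM at 7 dpa, and mpz of glia, at 0.582 TPM at 0 dpa. A marker above 0 does not by itself show its cell type. Summed fibroblast markers ranged from 1319 to 1984 TPM at 0 dpa, 15116 to 17824 at 3 dpa, 11975 to 15489 at 7 dpa, 10526 to 12494 at 10 dpa and 4293 to 5087 at 14 dpa. Summed superficial epidermis markers ranged from 17502 to 23208 TPM at 0 dpa, from 6888 to 9684 at 3 dpa and from 18448 to 19369 at 14 dpa. In 4 libraries (replicate 1 of 0 dpa, replicate 2 of 7 dpa, replicates 2 and 3 of 10 dpa) the immediate early gene fosb was at 886 to 1702 TPM, against 23.0 to 144 TPM in the other 10. Some results are therefore also given without these 4, and further counts of called genes moved in that setting.

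Transcripts of all 5 msx genes rose at 3 dpa over 0 dpa and were lower at each later time than at 3 dpa. None of the 5 went back to its 0 dpa range within the 14 days sampled. The msx1b, msx2b and msx3 genes were abundant, and msx2a and msx1a were scarce. In bulk tissue, a change in the number of cells that express a gene and a change of RNA per cell cannot be told apart.

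The msx2b gene (msxd) was at 8.57, 8.51 and 11.9 TPM at 0 dpa and at 192, 279 and 287 TPM at 3 dpa. It was then at 88.3, 37.9 and 77.5 TPM at 7 dpa, at 57.4, 26.8 and 25.7 TPM at 10 dpa, and at 39.3 and 21.3 TPM at 14 dpa. Every regrowth library was above every 0 dpa library, and the 3 dpa libraries were above all others. The mean at 3 dpa was 253 ± 53.1 TPM, against 9.67 ± 1.96 TPM at 0 dpa (SD, n = 3 each), a 26.1-fold difference and the 40th largest rise among 11272 genes on the log2 scale. The log2 change was 4.56 ± 0.37 (SE, adjusted p = 6.54e-07 by limma), where every log2 change is of TPM + 1, which understates the change of low genes.

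The msx1b gene (msxb) had the highest level of the family at 0 dpa, with 13.2, 15.1 and 15.9 TPM. It was at 137, 208 and 232 TPM at 3 dpa, at 120, 69.9 and 121 TPM at 7 dpa, at 90.1, 52.4 and 45.7 TPM at 10 dpa, and at 44.5 and 35.8 TPM at 14 dpa. Its regrowth values did not overlap those of 0 dpa at any time. The mean at 3 dpa was 192 ± 49.3 TPM, against 14.7 ± 1.41 TPM at 0 dpa (SD, n = 3 each), a 13.1-fold difference, with a log2 change of 3.59 ± 0.28 (adjusted p = 5.22e-07).

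The msx3 gene (msxc) ran close to msx1b during regrowth. Its values were 8.77, 9.66 and 7.50 TPM at 0 dpa, 147, 213 and 195 TPM at 3 dpa and 105, 57.2 and 102 TPM at 7 dpa. They were 70.6, 43.5 and 38.7 TPM at 10 dpa and 41.1 and 28.7 TPM at 14 dpa. Here too no regrowth library overlapped those of 0 dpa, and the lowest regrowth value was a 14 dpa one. The mean at 3 dpa was 185 ± 34.3 TPM, against 8.65 ± 1.08 TPM at 0 dpa (SD, n = 3 each). That is 21.4-fold higher, with a log2 change of 4.26 ± 0.27 (adjusted p = 9.42e-08).

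The remaining members were nearly silent at 0 dpa. The msx2a gene (msxa) was at 0.270, 0.405 and 1.01 TPM at 0 dpa, at 19.5, 27.4 and 31.6 TPM at 3 dpa and at 7.36, 3.42 and 10.2 TPM at 7 dpa. It was at 6.19, 2.98 and 3.25 TPM at 10 dpa and at 6.74 and 3.13 TPM at 14 dpa, so that the ranges at 7, 10 and 14 dpa overlap each other but not that of 0 dpa. The msx1a gene (msxe) was at 0.405, 0.270 and 0.0670 TPM at 0 dpa, at 4.58, 8.31 and 7.50 TPM at 3 dpa and at 3.09, 3.21 and 4.04 TPM at 7 dpa. It was at 2.33, 1.06 and 2.24 TPM at 10 dpa and at 1.15 and 1.07 TPM at 14 dpa. The log2 changes at 3 dpa were 4.12 ± 0.37 for msx2a (adjusted p = 1.72e-06) and 2.62 ± 0.23 for msx1a (adjusted p = 1.54e-06). With a pseudocount of 0.1 in place of 1 they were 5.44 and 4.41, since both genes start below or near 1 TPM. As ratios of mean TPM the rises were 46.7-fold for msx2a and 27.5-fold for msx1a, above the 26.1-fold of msx2b. These ratios rest on 0 dpa means of 0.560 TPM for msx2a and 0.247 TPM for msx1a.

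**Figure D1:**
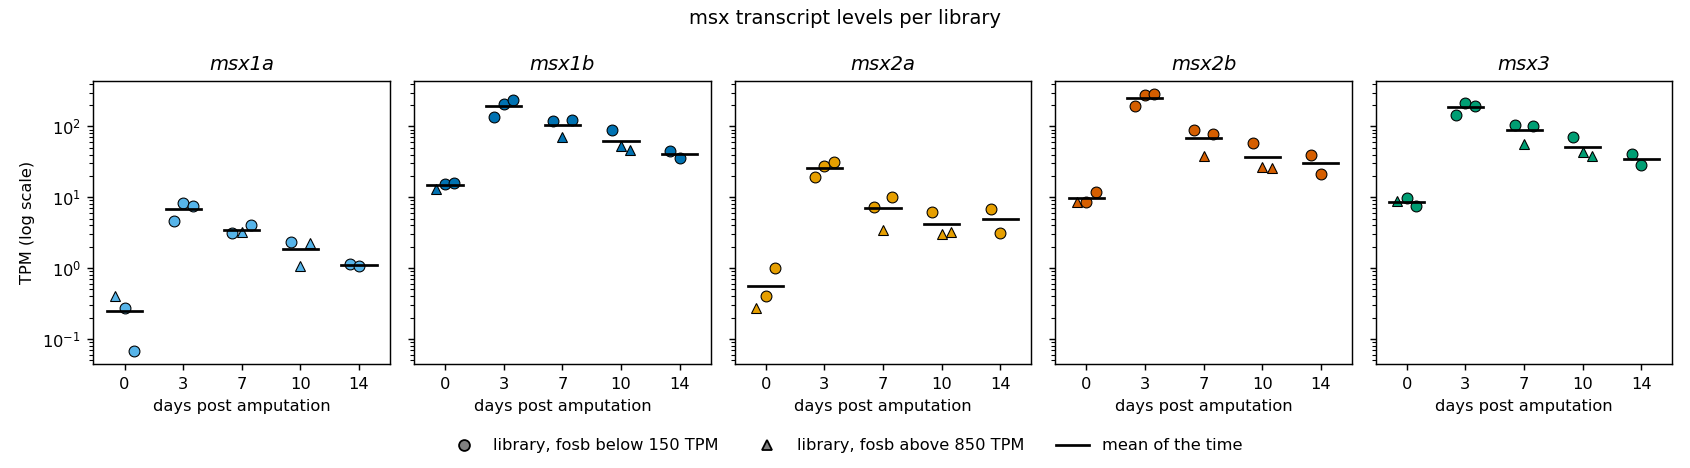
TPM of each msx gene on a logarithmic axis against days post amputation, with 1 symbol per library, triangles for the 4 libraries with high fosb and a black bar for the mean of each time. In every gene the 3 dpa libraries lie above those of the other times, and all regrowth libraries lie above those of 0 dpa.

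At 3 dpa all 5 msx genes passed the threshold of adjusted p under 0.05 and were higher than at 0 dpa, where 35.0% of all genes tested were called higher. Groups did not overlap in any of the 5, which was so of 39.2% of all genes, counting those higher at 3 dpa. At 7 dpa all 5 were called higher, against 21.5% of all genes, and none overlapped 0 dpa, against 26.8%. The changes at 7 dpa were between 1.84 for msx1a and 3.17 for msx3 on the log2 scale of TPM + 1. As a ratio of mean TPM, with no pseudocount, msx1a had the largest rise of the 5 at 7 dpa, 13.9-fold. The ratio was 12.5 for msx2a and 10.2 for msx3. At 10 dpa all 5 were called higher, against 14.0% of all genes, and none overlapped 0 dpa, against 21.9%. The changes were between 1.18 for msx1a and 2.39 for msx3. The ratio of mean TPM was 7.58 for msx1a, 7.39 for msx2a and 5.89 for msx3. Ratios of msx1a and msx2a rest on low 0 dpa means, 0.247 and 0.560 TPM. The comparisons at 3, 7, 10 and 14 dpa share the 0 dpa libraries and are not independent of each other.

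At 14 dpa, 4 of the 5 were called higher, against 10.1% of all genes. None of the 5 overlapped 0 dpa, which with 2 libraries at 14 dpa was so of 41.3% of all genes. The msx2a gene was 1.89 ± 0.41 higher (adjusted p = 0.0152), msx3 was 1.88 ± 0.30 higher (adjusted p = 0.00318), msx2b 1.51 ± 0.41 (adjusted p = 0.0358) and msx1b 1.38 ± 0.31 (adjusted p = 0.0174). The msx1a value was 0.77 ± 0.26 and did not pass (adjusted p = 0.0747), and it passed in 3 alternative settings and not in 21. Its ratio of mean TPM at 14 dpa was 4.48, against 8.82 for msx2a and 4.04 for msx3. The msx1a ratio rests on 0 dpa values from 0.0670 to 0.405 TPM. These calls at 14 dpa are the least firm. The median of all genes was itself 0.30 higher at 14 dpa, and with median-of-ratios scaling, which brings it to 0.03, 2 of the 5 msx genes passed. Without 14 dpa replicate 1 none passed, without 14 dpa replicate 2 there were 2, and without 0 dpa replicate 2 there was 1, while without the 4 libraries with high fosb all 5 passed. That setting called 3459 of 11133 genes at 14 against 0 dpa, where all 14 libraries called 1265 of 11272. The median of all genes was higher than at 0 dpa by 0.24, 0.19 and 0.16 at 3, 7 and 10 dpa, and above it the msx2b change, for example, was 4.32 at 3 dpa and 1.20 at 14 dpa.

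**Figure D2:**
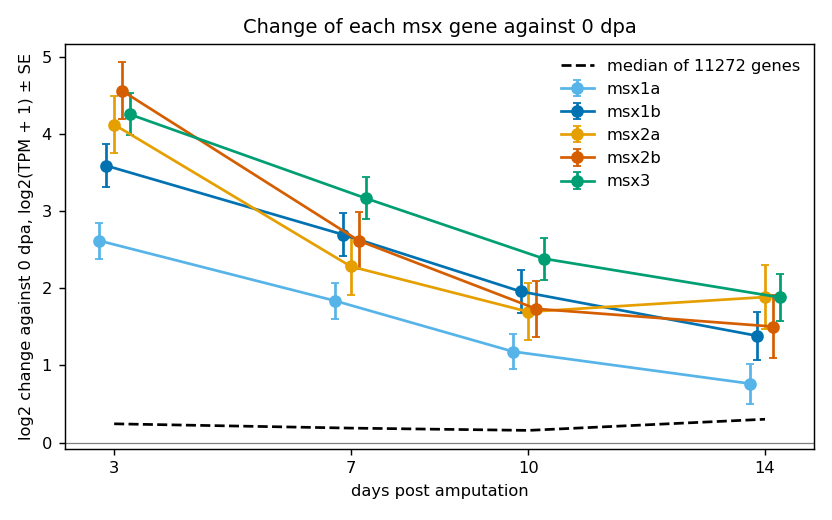
Log2 change of each msx gene against 0 dpa (y axis, log2 of TPM + 1, mean ± SE) at 3, 7, 10 and 14 dpa (x axis, points set slightly apart), with the median of 11272 genes as a dashed line. The 5 genes lie between 2.62 and 4.56 at 3 dpa and between 0.77 and 1.89 at 14 dpa, above the dashed line throughout.

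All 5 genes fell with time from 3 to 14 dpa, against 13.4% of all genes called lower with time. The slopes on the log2 scale were -0.31 ± 0.05 per day for msx2b (adjusted p = 0.000588), -0.23 ± 0.03 for msx3, -0.23 ± 0.05 for msx2a, -0.22 ± 0.03 for msx1b and -0.18 ± 0.03 for msx1a. At 14 dpa all 5 were called lower than at 3 dpa, against 14.3% of all genes, and none overlapped, against 28.2% of all genes. The msx2b change at 14 dpa against 3 dpa was -3.06 ± 0.41 (adjusted p = 0.000104), which left 12.0% of its 3 dpa mean. For msx1a, msx1b, msx2a and msx3, 16.3% to 20.9% of the 3 dpa mean was left. A moderated F test for change at any time called all 5, against 47.6% of all genes.

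In TPM, more of the 3 dpa mean was lost between 3 and 7 dpa than between 7 and 14 dpa in all 5 genes. On the log2 scale this was so of msx2a and msx2b only. For msx3, msx1b and msx1a the changes at 14 against 3 dpa were -2.38, -2.21 and -1.85, with the larger part after 7 dpa. At 7 dpa msx2b had 26.9% of its 3 dpa mean and msx2a had 26.7%, while msx3 had 47.8%, msx1a 50.7% and msx1b 53.9%. All 5 were called lower at 7 than at 3 dpa, against 7.57% of all genes, and none overlapped, against 18.3%. The changes at 7 against 3 dpa were -1.94 ± 0.37 for msx2b (adjusted p = 0.00329), -1.84 ± 0.37 for msx2a (adjusted p = 0.00487), -1.09 ± 0.27 for msx3 (adjusted p = 0.0161), -0.89 ± 0.28 for msx1b (adjusted p = 0.0461) and -0.78 ± 0.23 for msx1a (adjusted p = 0.0364). Over the alternative settings the msx1b call was lost in 16 and kept in 9. The msx1a call was lost in 11 and kept in 13, and the msx3 call was lost in 3 and kept in 22. Those of msx2a and msx2b were kept in all 25. Leaving out 1 library at a time kept between 2 and 5 of these calls. The msx2a and msx2b calls held in each case, and 2 were left without 3 dpa replicate 2, 3 dpa replicate 3 or 7 dpa replicate 2. The msx1b change was -0.63 without the 4 libraries with high fosb (adjusted p = 0.0506).

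Steps between later times did not pass the test. None of the 5 passed at 10 against 7 dpa by limma, where 0.0177% of all genes did, and 4 of the 5 had an unadjusted p under 0.05, against 7.18% of all genes. The values were between -0.88 for msx2b and -0.59 for msx2a, and msx1a was the member whose groups did not overlap, against 5.34% of all genes. At 14 against 10 dpa none passed by limma, where 8.77% of all genes did, and none had an unadjusted p under 0.05, against 24.9% of all genes. The values were between -0.58 for msx1b and 0.19 for msx2a. The msx1b groups did not overlap and were lower at 14 dpa, which was so of 15.8% of all genes. Without the 4 libraries with high fosb the msx1b change was -1.15 (adjusted p = 0.0485) and 472 of 11133 genes were called, with 1 library left at 10 dpa that was assumed to vary like the others.

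The make-up of the msx transcripts differed between times. The summed level of the 5 genes was 33.8 ± 2.60 TPM at 0 dpa, 663 ± 142 at 3 dpa, 270 ± 85.7 at 7 dpa, 156 ± 61.2 at 10 dpa (SD, n = 3 each) and 111 ± 30.3 at 14 dpa (SD, n = 2). At 0 dpa msx1b made up 42.2% to 44.5% of it, msx2b 25.0% to 32.8% and msx3 20.6% to 28.4%. At 3 dpa msx2b made up 38.0% to 38.3%, msx1b 27.5% to 30.8% and msx3 25.9% to 29.4%. At 7 to 14 dpa msx1b had the largest share in each of the 8 libraries, followed by msx3 and then msx2b. The scarce msx2a gene made up 0.866% to 2.76% at 0 dpa, 3.72% to 4.20% at 3 dpa and 3.48% to 5.07% at 14 dpa, and msx1a stayed at or below 1.93% in all 14 libraries.

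**Figure D3:**
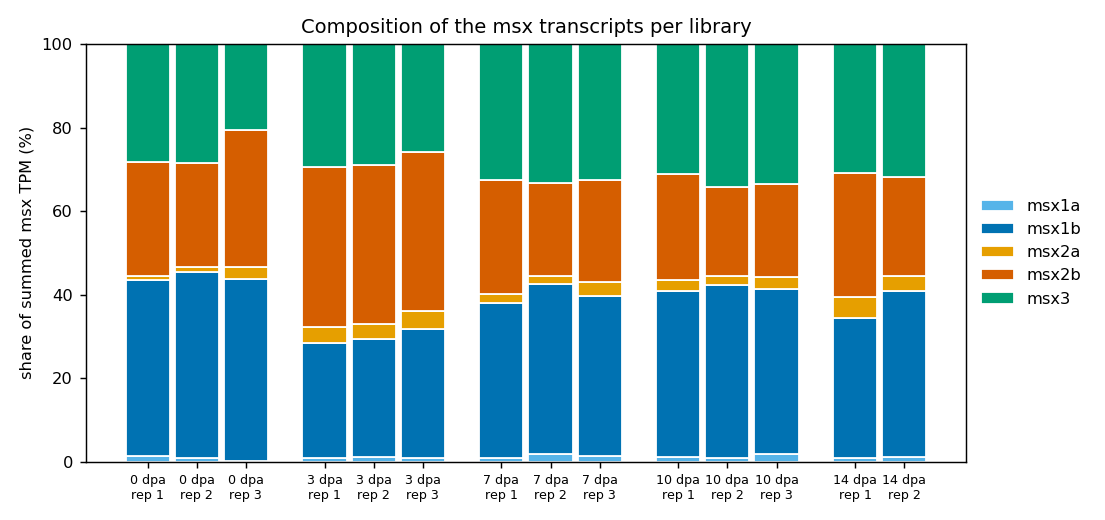
Share of each msx gene in the summed msx TPM (y axis, percent) in each of the 14 libraries, ordered by time. The msx2b share is 38.0% to 38.3% in the 3 libraries of 3 dpa and at most 32.8% elsewhere.

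In the order of levels, msx2b was the highest member in each of the 3 libraries of 3 dpa, and msx1b in each of the other 11. The ranges of msx2b, msx1b and msx3 over the libraries of 3 dpa overlapped, although within each library msx2b was above the other two. At 0 dpa msx1b lay above both msx2b and msx3, which overlapped each other. At 7, 10 and 14 dpa the ranges of neighbours in the order, msx1b and msx3, and msx3 and msx2b, overlapped. The gap between these 3 genes and the others was wide, since msx2b was 6.31 ± 0.68 times the level of msx2a at 14 dpa (SD, n = 2), and at least 5.83 times in every library. In the same way msx1b was at least 20.4 times the level of msx1a.

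The ratio of msx2b to msx1b within a library was 0.651, 0.563 and 0.751 at 0 dpa and 1.40, 1.35 and 1.24 at 3 dpa. It was 0.736, 0.543 and 0.639 at 7 dpa, 0.638, 0.511 and 0.564 at 10 dpa, and 0.883 and 0.594 at 14 dpa. Only at 3 dpa was there more msx2b than msx1b, in all 3 libraries. The mean log2 ratio of msx1b to msx2b (TPM + 1) was -0.40 ± 0.09 in the 3 libraries of 3 dpa, against 0.65 ± 0.25 in the 8 libraries of 7 to 14 dpa. The difference of -1.06 had p = 0.0121 in a two-sided exact permutation test, the smallest that these libraries allow, and adjusted p = 0.0404 over the 10 pairs of msx genes. The ratio of msx2b to msx3 differed likewise, with a log2 ratio of 0.44 ± 0.10 at 3 dpa, against -0.41 ± 0.20 at 7 to 14 dpa (exact permutation test, p = 0.0121, adjusted p = 0.0404). Both adjusted values also rest on the pair of msx1a and msx2b, which had the same p and involves a scarce gene. Without the 4 libraries with high fosb no pair passed, with fewer regroupings to draw on, and neither of these ratios overlapped between the groups. This comparison of 3 dpa with later times was chosen after the values were seen.

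The ratio of msx3 to msx1b was 0.667, 0.639 and 0.472 at 0 dpa and between 0.784 and 1.07 in the 11 regrowth libraries. The mean log2 ratio of msx1b to msx3 was 0.19 ± 0.14 in the 11 regrowth libraries, against 0.71 ± 0.25 in the 3 libraries of 0 dpa, with no overlap. The difference of -0.52 had p = 0.00549 in a two-sided exact permutation test, the smallest that these libraries allow (adjusted p = 0.0275 over 10 pairs). That adjusted value also rests on the pair of msx1a and msx3, which had the same p. The pairs share genes and libraries and are not independent. At a pseudocount of 0.1, without the 4 libraries, or without any 1 library of 0 dpa, none of the 10 pairs passed, while the msx1b to msx3 ratio still did not overlap. In the same test, regrowth against 0 dpa, the ratio of msx1b to msx2b gave -0.21 (adjusted p = 0.714) and that of msx2b to msx3 gave -0.31 (adjusted p = 0.416). Both values average times that differed. The log2 ratio of msx1b to msx2b was -0.40 at 3 dpa and 0.65 at 7 to 14 dpa, against 0.57 at 0 dpa. That of msx2b to msx3 was 0.44 and -0.41, against 0.14 at 0 dpa. Changes in pairs with msx1a or msx2a are not given, because the direction of 5 of the 10 pairs turned at a pseudocount of 0.1.

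**Figure D4:**
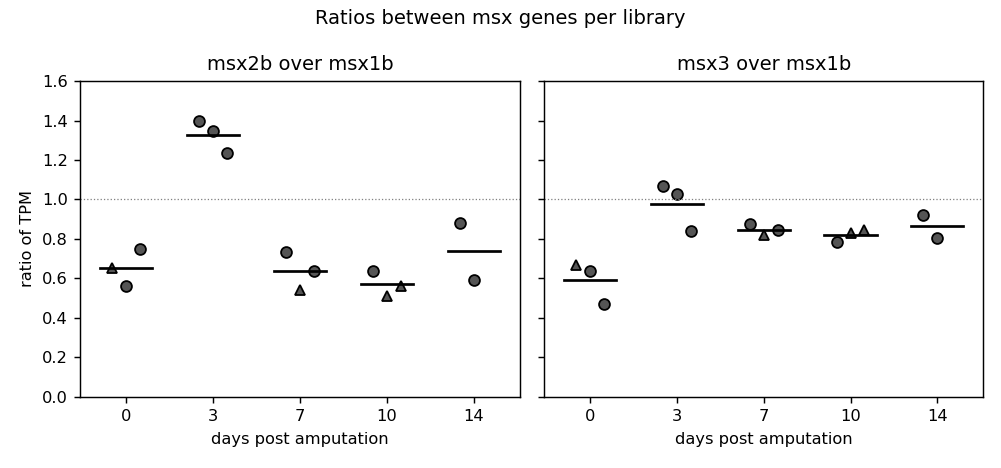
Ratio of TPM of msx2b to msx1b (left) and of msx3 to msx1b (right) in each library against days post amputation, with triangles for the 4 libraries with high fosb, a black bar for the mean of each time and a dotted line at equal levels. The left ratio is 1.24 to 1.40 at 3 dpa and at most 0.883 at the other times, and the right ratio is lowest at 0 dpa.

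Within a time, the msx genes tended to be high or low in the same libraries. At 3 dpa replicate 1 was the lowest library for all 5 genes. At 10 dpa replicate 1 was the highest for all 5, and at 14 dpa replicate 1 was above replicate 2 for all 5. At 7 dpa replicate 2 was the lowest for 4 of the 5, msx1a being the exception. The lower libraries at 7 and 10 dpa were ones with high fosb, at 1702 TPM in 7 dpa replicate 2 and at 886 and 1343 TPM in 10 dpa replicates 2 and 3, against 46.3 to 68.7 TPM in the other libraries of those times. Summed fibroblast markers were not lower in them, at 15489 TPM in 7 dpa replicate 2, against 13650 and 11975 TPM in the other two, and at 11042 and 12494 TPM in 10 dpa replicates 2 and 3, against 10526 TPM in replicate 1. That sum was mostly col1a2, at means of 10904 TPM at 7 dpa and 9480 TPM at 10 dpa. Summed superficial epidermis markers ranged from 12161 to 17511 TPM at 7 dpa and from 13088 to 19085 TPM at 10 dpa. They were not compared library by library, and the part of tissue make-up in the lower msx levels of these libraries was not tested. At 0 dpa the library with high fosb was the lowest for 2 of the 5 genes and the highest for 1. The part of fosb-linked differences in these results was not tested, and the log2 changes at 3 dpa without the 4 libraries were 4.49 for msx2b, 4.27 for msx3, 3.99 for msx2a, 3.52 for msx1b and 2.71 for msx1a.

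Likeness of other genes to each msx gene was taken over the 14 libraries, in which all genes share library and tissue make-up. It was Pearson's r of log2(TPM + 1), given as a description. For msx1b the 5 most alike genes were msx3 (r = 0.993), dact2, a Dapper gene of Wnt and Tgfb signalling (r = 0.993), ilk, the integrin-linked kinase (r = 0.990), prickle1b of planar cell polarity (r = 0.988) and tnfaip6, a hyaluronan-binding protein gene (r = 0.987). For msx3 they were dact2 (r = 0.993), msx1b, prickle1b (r = 0.992), the Sox factor gene sox11b (r = 0.989) and fibinb (r = 0.988). The dact2 gene was at 94.0 TPM at 3 dpa, against 1.82 TPM at 0 dpa.

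For msx2b the most alike genes were bambia, which encodes a pseudoreceptor that dampens Bmp and Tgfb signals (r = 0.989), msx2a (r = 0.986), the homeobox gene dlx5a, a marker of the distal wound epidermis (r = 0.986), the Bmp family ligand gene gdf6a (r = 0.985) and gp1bb, a platelet glycoprotein subunit (r = 0.983). For msx2a they were msx2b, dlx5a (r = 0.983), actr1 (r = 0.975), tdg.1, a DNA glycosylase gene (r = 0.974), and the cyclin gene ccne1 (r = 0.974). Thus msx1b and msx3 stood on each other's list, as did msx2a and msx2b. For msx1a they were arhgef9b (r = 0.981), rybpa of the Polycomb group (r = 0.980), tg, the thyroglobulin gene (r = 0.978), nupr1b (r = 0.973) and spoplb (r = 0.972), and no other msx gene.

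When the mean of each time was taken out, over the 11 regrowth libraries, the closest pair of msx genes was msx2b and msx3 (r = 0.984). With time means left in, over the 14 libraries, they had r = 0.966 and were on neither gene's list. Deviations over all 14 libraries gave r = 0.890 for this pair, below 0.936 for msx2a and msx2b. Over the 11 libraries msx2b deviations were most like those of rpusd4 (r = 0.991) and msx1b most like rbm7 (r = 0.990). There msx2a was most like icmt (r = 0.993) and msx1a most like paxip1 (r = 0.917). The gene most like msx3 was scel (r = 0.988), a sciellin gene of cornified epidermis, which at 3 dpa was at 255 TPM, against 593 TPM at 0 dpa. So the gene whose deviations within times were most like those of msx3 had its higher level at 0 dpa. The msx3 list also held ppl (r = 0.982), 1 of the superficial epidermis markers, at 1132 TPM at 3 dpa, against 3743 TPM at 0 dpa.

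Genes of Bmp signalling, which acts upstream of msx genes in many tissues, were higher in part at 3 dpa. This list and those below were drawn up with earlier results of these data known. Of 13 genes in the list of Bmp ligands, 10 were called higher and none lower at 3 against 0 dpa, where 35.0% of all genes were called higher and 19.6% lower, with a median log2 change of 1.26 for the list and 0.24 for all genes. The 4 largest were bmp1a at 3.10 ± 0.18, bmp8a at 2.76 ± 0.20, gdf6a at 2.53 ± 0.19 and bmp16 at 1.59 ± 0.30. The product of bmp1a, like that of bmp1b, is a metalloprotease that processes procollagen and not a ligand. The ligand genes bmp2b, at 1.39 ± 0.19, and bmp4, at 1.32 ± 0.17, were also called. At 7, 10 and 14 dpa 11, 10 and 3 of the 13 were called higher, against 21.5%, 14.0% and 10.1% of all genes. Fewer of the 13 were called higher at 10 dpa without the 4 libraries with high fosb, and fewer of all genes were called too. At 14 dpa more were called in that setting, as were more of all genes. At 14 dpa bmp2b gave 0.33 (adjusted p = 0.312) and bmp4 gave 0.11 (adjusted p = 0.733).

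Of 14 Bmp receptor and Smad genes, 8 were called higher and 2 lower at 3 dpa, against 35.0% and 19.6% of all genes, with a list median of 0.79. They included the inhibitory Smad genes smad6b (2.27 ± 0.30) and smad6a (1.95 ± 0.25), and smad1 (1.94 ± 0.19) and smad9 (1.69 ± 0.19), which transmit Bmp signals. Of 14 Bmp antagonist and modulator genes, 12 were called higher and none lower, with a median of 1.73. The largest changes were in bambia at 3.29 ± 0.27, bmper at 3.21 ± 0.26, the follistatin-like gene fstl1b at 2.84 ± 0.22 and the follistatin gene fstb at 2.59 ± 0.30. Without the 4 libraries with high fosb more receptor and Smad genes were called, both higher and lower. More antagonist and modulator genes were called higher, and more of all genes were called too.

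The Id genes are direct targets of Bmp Smads in many cells. Of 5 tested, id1 (1.91 ± 0.29, adjusted p = 0.000135) and id2a (1.03 ± 0.24, adjusted p = 0.00285) were called higher at 3 dpa, against 35.0% of all genes. Values for id2b, id3 and id4 were 0.24, -0.55 and -0.02 and did not pass, and the list median was 0.24, the same as for all genes. Without the 4 libraries with high fosb more of the 5 were called, and not all of those called were higher. More of all genes were called too. At 14 dpa none of the 5 passed by limma, and their median was 0.26.

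Dlx genes, homeobox genes that work with or against Msx genes in fins and limbs, were all called higher at 3 dpa, 8 of 8, with a median of 2.33. The largest were dlx5a at 3.71 ± 0.38, dlx2a at 3.45 ± 0.40, dlx4a at 3.07 ± 0.27 and dlx6a at 2.51 ± 0.39. At 7, 10 and 14 dpa 6, 7 and 0 were called higher. Over all genes 35.0%, 21.5%, 14.0% and 10.1% were called higher at 3, 7, 10 and 14 dpa. Without the 4 libraries with high fosb some Dlx genes were called at 14 dpa, as were more of all genes. In that setting more Dlx genes were called higher at 7 dpa and fewer at 10 dpa. The dlx5a value at 14 dpa was 1.41 (adjusted p = 0.0504).

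Of 26 further distal blastema and wound epidermis genes, 24 were called higher and none lower at 3 dpa, with a median of 2.48. They were led by lepb, which encodes a leptin hormone (6.15 ± 0.53), tph1b, an enzyme gene for making serotonin (5.86 ± 0.22), the Wnt effector gene lef1 (4.20 ± 0.15) and aldh1a2, which makes retinoic acid (4.17 ± 0.16). At 7, 10 and 14 dpa 21, 15 and 10 were called higher. Over all genes 35.0%, 21.5%, 14.0% and 10.1% were called higher at 3, 7, 10 and 14 dpa. Without the 4 libraries with high fosb more of the list were called at 14 dpa, as were more of all genes. Of 22 limb mesenchyme factors 19 were called higher at 3 dpa, with a median of 2.25, including prrx1b (4.30 ± 0.20), lhx2b (3.83 ± 0.48), twist3 (3.56 ± 0.18) and tbx18 (3.39 ± 0.41). At 14 dpa 9 of the 22 were called higher, and more without the 4 libraries, as were more of all genes.

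Over all genes 35.0%, 21.5%, 14.0% and 10.1% were called higher at 3, 7, 10 and 14 dpa. Called lower were 19.6% at 3 dpa and 1.08% at 14 dpa. Of 21 cell cycle genes, 13 were called higher and 2 lower at 3 dpa, with a median of 0.92. They were led by ccne1 (2.16 ± 0.25), a cyclin of S phase entry, and cdkn1ca (2.10 ± 0.21), a cyclin-dependent kinase inhibitor, with ccnb1, a mitotic cyclin, at 1.82 ± 0.19 and the inhibitor cdkn1a at -1.66 ± 0.60 (adjusted p = 0.0337). Fibroblast markers were called higher in 9 of 9 at 3, 7 and 10 dpa and in 7 at 14 dpa, and superficial epidermis markers lower in 7 of 8 and higher in 1 at 3 dpa, and at 14 dpa lower in 1 and higher in 2. Osteoblast markers were likewise highest in sum at 3 dpa, with summed levels of 227 to 369 TPM at 0 dpa, 12847 to 12974 at 3 dpa, 8341 to 11707 at 7 dpa, 6880 to 8951 at 10 dpa and 2334 to 2692 at 14 dpa. Most of that sum was 1 gene, col10a1a, at a mean of 12418 TPM at 3 dpa. The median log2 change of the osteoblast list against 0 dpa was 2.02 at 3 dpa, 3.50 at 7 dpa and 3.07 at 10 dpa. At 7 against 3 dpa 2 osteoblast markers were called higher and none lower, against 9.14% and 7.57% of all genes. Of 9 osteoblast markers, 6, 7, 7 and 5 were called higher at 3, 7, 10 and 14 dpa, and none lower. Without the 4 libraries with high fosb more osteoblast markers were called higher at 3 dpa, and fewer at 7 and 10 dpa. At 3 dpa more cell cycle genes and fewer endothelium markers were called higher in that setting, and more of all genes were called. At 3 dpa basal epidermis markers were lower in 4 of 7 and higher in 1, and endothelium markers higher in 5 of 5. Pigment cell markers were lower in 5 of 7, glia and nerve markers lower in 3 of 4 and higher in 1, and macrophage markers lower in 2 of 4. The part of these shifts in tissue make-up in the msx changes was not tested.

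**Figure D5:**
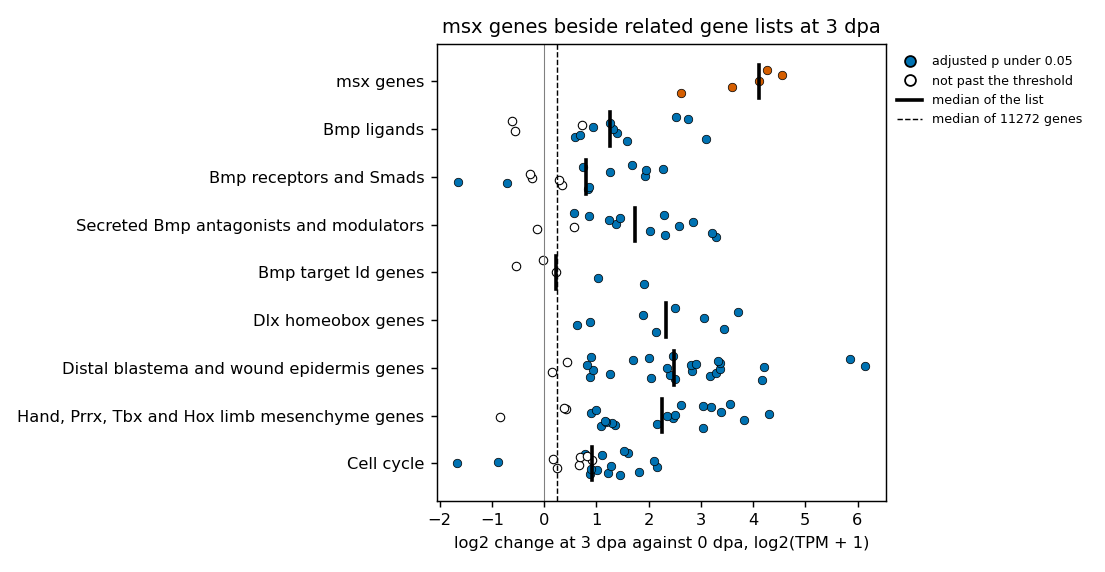
Log2 change at 3 against 0 dpa (x axis, log2 of TPM + 1) for each gene of 9 lists, the msx genes on top, with filled points for adjusted p under 0.05, open points for genes that did not pass, a black bar for the list median and a dashed line for the median of 11272 genes. The msx genes lie between 2.62 and 4.56, and the list medians of the others lie between 0.24 and 2.48.

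Genes next to the msx genes on the chromosome were examined in the RefSeq gene table, whose build (GRCz12tu) is not that of the files, so it gave names and order only. Of the 10 nearest protein-coding neighbours, 7 were in the table and 4 could be tested. All 4 were called higher at 3 dpa, against 35.0% of all genes, by less than the msx gene beside them. Beside msx1b, caly changed by 1.81 ± 0.25 (adjusted p = 6.69e-05), and beside msx2b, nsg2, a neuronal endosome protein gene, by 1.64 ± 0.19 (adjusted p = 1.52e-05). Beside msx3, znf511, a zinc finger gene, changed by 1.49 ± 0.22 (adjusted p = 0.000112), and beside msx1a, stx18, a syntaxin gene, by 0.64 ± 0.19 (adjusted p = 0.0120). At 14 dpa caly was still called higher, by 1.08 ± 0.28 (adjusted p = 0.0310), against 10.1% of all genes. The changes of nsg2, znf511 and stx18 at 14 dpa were 0.08, 0.29 and 0.49 and did not pass.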

How the data were processed

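The authors deposited 1 TPM value per gene and library, with equal library sums. Per the submitters' processing notes, the tools were Salmon 1.4.0, cutadapt 3.5 and Trim Galore 0.6.7, with danRer11 as the genome build. How transcripts were joined into genes is not stated in those notes. Depth cannot be recovered from TPM and is unknown, so intervals for counting error are left out. Because Salmon estimates how reads split between similar genes, values within the msx family carry that uncertainty too.

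The filter required 1 TPM or more in 2 or more libraries. Values of log2(TPM + 1) from the 14 libraries were fitted with 1 mean per time in limma 3.58.1 (R 4.3.3, variance trend, two-sided), with Benjamini-Hochberg adjustment over all genes kept. The slope used 3.5, 7, 10 and 14 days over 11 libraries. Ratios between msx genes were tested with exact permutation tests (SciPy 1.17.1). The model code was run on simulated data with noise drawn separately for each gene and library. Those data hold no differences shared by the genes of a library, so they say nothing of error rates here.

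All msx members were named, with the 5 genes most alike by r among genes with a mean of at least 5 TPM at some time and no clone name, and up to 4 called genes per list. The members and lists were chosen with earlier results of these data known. Values of bmp2b, bmp4, cases that did not pass and the chromosomal neighbours were chosen for mention after results were seen. Alternatives were other pseudocounts, filters, scalings, variance models and weights, the replicate block, only both groups' libraries, each library left out, and the 4 libraries with high fosb left out. No genome of the build was used here.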

Additional observations from a re-analysis of the deposited data

How the results depend on the processing

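All 5 msx genes passed at 3, 7 and 10 dpa against 0 dpa, at 14 against 3 dpa, at any time and in the slope, and counts stayed within 1.5 times of that under every alternative run for them. At 14 against 0 dpa, 4 passed, but 2 at a pseudocount of 5, 2 with median-of-ratios scaling, 1 with quantile normalization and 0 to 4 without 1 library. At 7 against 3 dpa, 5 passed, but 3 with the replicate block, 3 from only the libraries of both groups and 2 to 5 without 1 library. Deviations of same-numbered libraries correlated at a median of -0.10, against 0.04 for others, and 5 of 14 libraries correlated best with their own number. The values thus showed no pairing by replicate number, which cannot show how the libraries were collected. At 10 against 7 dpa, 0 passed, but 5 with library weights, and at 14 against 10 dpa 1 passed without the 4 libraries. The cause was not tested. Uncalled changes at 14 against 10 dpa turned direction, for msx2b to 0.075 with library weights and for msx2a to -0.35 without the 4 libraries, and without 1 library they ran from -0.66 to 0.20 for msx2b and from -0.26 to 0.64 for msx2a. Over all msx gene values, 1056 settings kept the side of the threshold, 51 lost and 9 gained a call, and 5 turned direction.

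Of 10 pairs, 3 passed for regrowth against 0 dpa, but 0 at a pseudocount of 0.1, 8 at 5, 0 without the 4 libraries and 0 to 4 without 1 library. For 3 dpa against later times 3 passed, but 7 at a pseudocount of 5, 0 without the 4 libraries and 0 to 5 without 1 library. Fewer libraries allow fewer regroupings in the exact permutation test. Its smallest p was 0.0256 without 1 library of 0 dpa and 0.0167 without 1 of 7 to 14 dpa. Losses on leaving libraries out therefore say nothing about stability. For regrowth against 0 dpa, the pseudocount of 0.1 kept every library and as many regroupings. The loss at that setting does show that these calls depend on the pseudocount.

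All-gene counts moved by over 1.5 times at 14 against 0 dpa, from 1265 to 524 with median-of-ratios scaling, 409 with quantile normalization, 252 from only both groups, 3459 without the 4 libraries and 177 to 1984 without 1 library. Library weights gave 5349, 6433 and 4985 at 7, 10 and 14 against 0 dpa, against 3442, 1885 and 1265, and 9951 for any time, against 5364. They gave 3091, 3211 and 5027 for the steps to 7, 10 and 14 dpa, against 1883, 2 and 989. The 14 against 10 dpa count was 404 from only both groups, 472 without the 4 libraries and 120 to 1274 without 1 library. It was 1196 to 2620 at 10 against 0 dpa and 2526 to 4099 at 14 against 3 dpa without 1 library, and 0 to 5 at 10 against 7 dpa over the other settings. Among called genes at 3 dpa the share higher was 64.1%, and 49.4% with median-of-ratios scaling, at 7 dpa 70.3% and 48.8%, at 10 dpa 83.7% and 58.4%, at 14 dpa 90.4% and 51.9%, and at 14 against 10 dpa 58.5% and 39.2%. A search for promoter motifs was not run.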
